A study of Homo sapiens with 9 samples.

Results

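The human zinc finger genes of chromosome 19 were followed in MDA-MB-231 cells treated with a herbal injection or with either of its component herbs. MDA-MB-231 is an established human breast adenocarcinoma cell line. The 215 genes described here are protein-coding, lie on chromosome 19, carry a symbol of ZNF followed by a number and had at least 10 raw counts in at least 3 of the 9 libraries. They were taken from 24344 genes in the count table. The annotation of build GRCh37 lists 249 protein-coding genes of this kind, of which 242 were in the table and the other 7 were not analysed here. A further 27 were in the table below the count rule, with no single count above 15. Of these, 4 had no count in any library, where a count of 0 allows up to 3 counts per library. The treatments lasted 48 h. They were Compound Kushen Injection (CKI), which is made from the herbs Kushen and Baituling, and an injection of Kushen alone or of Baituling alone. Per the study's methods, CKI was used at 2.0 mg/mL of total alkaloid and the single injections at the equivalent concentration. The titles of all 9 samples carry the mark 1/10. Each group had 3 libraries of total RNA, given as biological replicates in the series design, and every library came from this 1 cell line under an injection. Untreated cells were not analysed here, so each value below compares treatments with each other and not with untreated cells.

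Most of these genes encode C2H2 zinc finger proteins, in which each finger holds a zinc ion by a pair of cysteines and a pair of histidines and reads a few bases of DNA. Many also carry a KRAB domain, which binds the corepressor TRIM28. TRIM28 in turn brings in the histone methyltransferase SETDB1, heterochromatin protein 1 and the NuRD deacetylase complex, and the bound DNA is silenced. KRAB zinc finger proteins are known above all for silencing transposable elements, and on human chromosome 19 their genes sit in tandem clusters that grew by gene duplication.

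The finger is the unit that the genes share, so the coding DNA of the first finger in the reading frame is shown for the members with the clearest differences below (GRCh37, read from the coding exons 5′ to 3′ on the strand of the gene). Capitals mark the codons of the 2 cysteines and 2 histidines. The ZNF841 finger lies at chr19:52570118-52570180 on the minus strand and is 1 of 20 in that protein. The ZNF114 finger lies at chr19:48789797-48789859 on the plus strand and is 1 of 3. ZNF585A has its finger at chr19:37644261-37644323 on the minus strand, 1 of 21. ZNF428 has a single finger, at chr19:44111787-44111849 on the minus strand.
ZNF841: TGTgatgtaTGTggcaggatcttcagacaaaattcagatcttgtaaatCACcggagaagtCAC
ZNF114: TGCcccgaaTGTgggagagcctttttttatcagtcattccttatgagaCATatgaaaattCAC
ZNF585A: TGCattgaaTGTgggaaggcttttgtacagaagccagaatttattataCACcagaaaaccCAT
ZNF428: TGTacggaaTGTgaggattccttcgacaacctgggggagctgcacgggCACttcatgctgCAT
The conserved codons stand at the same spacing in each of the 4, while the bases between them, which set what a finger reads, differ. The fingers counted per member ranged from 1 to 31 with a median of 12, over the 214 members whose coding exons could be translated on this build. ZNF274 was left out of that count because its coding exons as placed on GRCh37 held internal stop codons.

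The libraries held 20144628 to 23782071 counts in genes. Genes that mark this cell line were present, with 336 to 2116 CPM of the mesenchymal filament gene VIM and 605 to 907 CPM of CD44, where CPM is a count relative to library size after TMM scaling. The hormone receptor genes ESR1 and PGR reached at most 0.118 and 0.177 CPM, the T cell gene CD3E 0.158 CPM and the endothelial gene CDH5 0.166 CPM. The leukocyte gene PTPRC reached at most 0.386 CPM, the hepatocyte gene ALB 0.282 CPM, and the fibroblast gene COL1A1 ranged from 13.9 to 37.8 CPM. AXL, ANXA1 and KRT18 had 524 to 1036, 443 to 890 and 126 to 332 CPM, and the epithelial genes CDH1, EPCAM and GATA3 had 0.443 to 2.82, 6.93 to 13.8 and 7.69 to 24.8 CPM.

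The chromosome 19 ZNF genes took the largest share of counts under CKI and the smallest under Baituling. Their summed share of all gene counts was 0.317%, 0.308% and 0.301% in the 3 CKI libraries, 0.265%, 0.257% and 0.261% in the Kushen libraries and 0.208%, 0.210% and 0.213% in the Baituling libraries. The 3 groups did not overlap, with means of 0.309% ± 0.0081 (SD, n = 3), 0.261% ± 0.0043 (SD, n = 3) and 0.210% ± 0.0026 (SD, n = 3). The 95% Wilson interval of a library's share reached at most 0.00229 percentage points to either side, which covers counting error only. The order did not rest on the most abundant members, because without the 10 members of highest count the share was 0.233% to 0.250%, 0.196% to 0.208% and 0.147% to 0.151%. The summed level on the TMM scale followed the same order, with 2798 to 2886 CPM under CKI, 2503 to 2550 CPM under Kushen and 2347 to 2368 CPM under Baituling. In a bulk sample, fewer cells that express a gene and less RNA per cell cannot be told apart.

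The 223 ZNF genes of other chromosomes that met the same count rule kept that order. They took 0.461% to 0.487% of counts under CKI, 0.424% to 0.430% under Kushen and 0.374% to 0.392% under Baituling. The 767 other protein-coding genes of chromosome 19 went the other way between CKI and Baituling, with 8.11% to 8.34% under CKI, 7.91% to 8.57% under Kushen and 9.34% to 9.67% under Baituling.

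**Figure D1:**
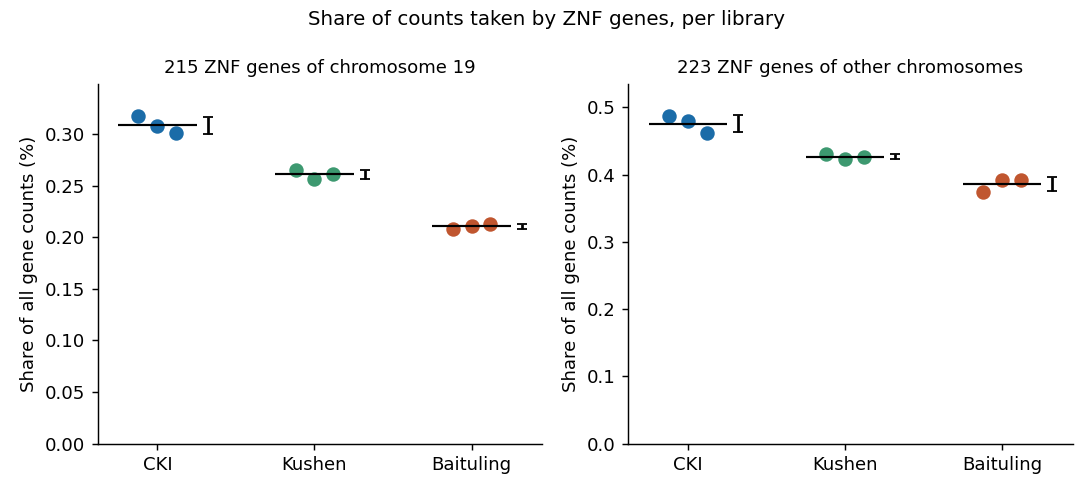
Share of all gene counts (%, y axis from 0) taken by the 215 ZNF genes of chromosome 19 (left) and by 223 ZNF genes of other chromosomes (right) in each library of the 3 groups (x axis), with the group mean as a line and the SD as a bar beside it. The CKI points lie highest and the Baituling points lowest in both plots, and no groups overlap.

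CKI against Baituling gave the widest difference over the members. Of the 214 members that passed the filter on low counts, 142 were higher under CKI at an adjusted p under 0.05 (edgeR's quasi-likelihood test with Benjamini-Hochberg adjustment over 14195 genes) and 20 were lower, against 39.1% of all genes tested that were higher and 37.0% that were lower. In percent, 66.4% of members were higher, compared with 41.2% of other genes of like expression, taken as the mean over 5 bins of expression. The median log2 fold change of the members was 0.49, that of all genes 0.03 and that of genes of like expression 0.17. ZNF154, the 1 member that the filter removed, had 1 to 12 counts per library.

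Most of these differences were small. A member was called when it passed the adjusted p and its log2 fold change was above 1 or below -1. By that rule 33 members were called higher under CKI, which is 15.4% of them, beside 11.2% of all genes and 14.8% of genes of like expression, so the share called higher lay above that of all genes and near that of genes of like expression. Under library totals 71 members were called higher (33.2%, beside 17.8% of all genes) and 0 lower. A single member, ZNF428, was called lower, beside 7.91% of all genes, under TMM scaling.

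The gap to other genes depended on the level of expression. Among the 43 members of the lowest of 5 expression bins, the median log2 fold change of CKI against Baituling was 0.62, beside 0.56 for other genes in that range. In the bin next to the highest it was 0.49 beside -0.01, and in the highest bin 0.36 beside -0.01. At low counts the median was thus near that of other genes, and at high counts it was above it.

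CKI against Kushen showed smaller differences in the same direction. There 70 members were higher under CKI at an adjusted p under 0.05 and 6 were lower, beside 19.6% and 20.2% of all genes, which makes 32.7% of members higher. The 6 lower members were ZNF443, ZNF784, ZNF358, ZNF581, ZNF83 and ZNF414, named after their values were seen. The median log2 fold change of members was 0.19, beside 0.01 for all genes and 0.05 for genes of like expression. Called members were ZNF114 and ZNF582, both higher under CKI and 0.935% of members, beside 1.70% of all genes. No member was called lower, beside 0.197% of all genes, by edgeR or by DESeq2, while 6 were lower at an adjusted p under 0.05 by edgeR and 4 by DESeq2.

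Kushen against Baituling lay between. Kushen was higher for 104 members and lower for 26 at an adjusted p under 0.05, beside 35.6% and 36.1% of all genes. Under library totals these counts were 146 and 14, beside 50.6% and 24.6% of all genes. The median log2 fold change of members was 0.28, beside 0.02 for all genes and 0.11 for genes of like expression. Of the members, 8 were called higher (3.74%, beside 8.50% of all genes) and 2 were called lower (beside 6.73%), so both shares lay below those of all genes. Under library totals 29 were called higher (13.6%, beside 12.8% of all genes) and 1 lower (beside 4.35%). The 3 comparisons share libraries and are not independent of each other.

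The TMM factors ranged from 0.877 in a Baituling library to 1.099 in a CKI library, so the choice of scaling moved all genes. Under library totals, the medians over every gene tested became 0.32 for CKI against Baituling, 0.23 for Kushen against Baituling and 0.08 for CKI against Kushen. The members' median exceeded that of all genes by 0.46, 0.26 and 0.19 in the same order under either scaling. No member past the test changed sign under upper quartile scaling or DESeq2 size factors, and those that did under library totals are named below.

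Most members that were higher had KRAB letters. The KRAB letters searched for were leucine and tyrosine followed, 2 residues later, by valine and methionine, read in any annotated transcript, and 171 members held them and 44 did not. A protein without these letters may still hold a diverged KRAB domain. Of the 170 tested members with KRAB letters, 128 were higher and 5 lower under CKI than under Baituling, and their median log2 fold change was 0.56. Of the 44 without them, 14 were higher and 15 lower, with a median of 0.03. Under library totals the members with the letters became 148 higher and 0 lower, with a median of 0.85. Those without became 24 higher and 10 lower with a median of 0.32, and the median of all genes also became 0.32.

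In Kushen against Baituling 90 members with KRAB letters were higher and 9 lower, and 14 without them were higher and 17 lower. Under library totals these became 126 and 4 with the letters and 20 and 10 without. In CKI against Kushen the counts with TMM scaling were 61 and 2 with the letters and 9 and 4 without. Members with KRAB letters also had lower exon GC content (median 42.7% against 51.3%), longer summed exons (5.84 kb against 3.83 kb) and lower levels (median 6.91 CPM against 13.6 CPM), and the part of each of these in the difference was not tested.

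**Figure D2:**
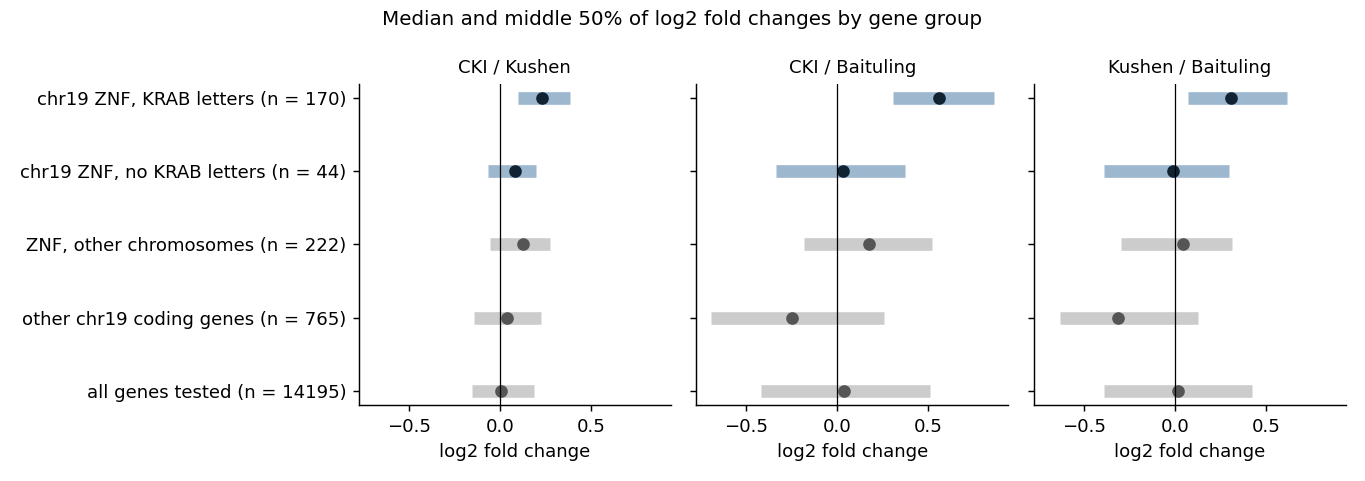
Median (point) and middle 50% (bar) of the log2 fold changes (x axis) of 5 gene groups (y axis) in the 3 comparisons, with TMM scaling. Chromosome 19 ZNF genes with KRAB letters sit at 0.23, 0.56 and 0.31 and those without at 0.08, 0.03 and -0.01. Other coding genes of chromosome 19 sit at 0.04, -0.25 and -0.31. Under library totals the comparisons with Baituling became 0.85 and 0.52 with the letters and 0.32 and 0.20 without. They became 0.04 and -0.10 for the other coding genes of chromosome 19 and 0.32 and 0.23 for all genes.

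The other protein-coding genes of chromosome 19 had a lower median. Of 765 tested, 191 were higher and 416 lower under CKI than under Baituling, with a median of -0.25 beside 0.03 for all genes. With library totals these became 311 and 291, with a median of 0.04 beside 0.32 for all genes. The median thus lay below that of all genes under either scaling. Of all genes, 39.1% were higher and 37.0% lower, or 57.0% and 22.6% under library totals. For the 222 tested ZNF genes of other chromosomes the counts were 95 and 50 with a median of 0.18, or 149 and 27 with a median of 0.46 under library totals.

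The number of fingers was set beside the differences, with no test. Among 51 tested members with 16 or more fingers, 39 were higher and 5 lower under CKI than under Baituling, with a median log2 fold change of 0.67, and 15 (29.4%) were called higher, beside 11.2% of all genes. Among 54 with 1 to 9 fingers, 28 were higher and 12 lower, with a median of 0.31, and 6 (11.1%) were called higher, a share like that of all genes. The groups of 10 to 12 and of 13 to 15 fingers had medians of 0.51 and 0.49. The finger groups were not split by KRAB letters, so the part of either trait in these differences was not tested.

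The members fell into 18 of 20 clusters, set by splitting the annotated genes wherever the gap to the next exceeded 500 kb. The 8 clusters with 10 or more members, lettered A to H here along the chromosome, held 194 members. Cluster F, from 52.1 to 54.1 Mb, had 36 tested members, each with KRAB letters. In it 32 were higher under CKI than under Baituling and 0 lower, with a median log2 fold change of 0.67. Cluster F also had the most higher members in CKI against Kushen, with 21 higher and 1 lower.

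Cluster E, from 44 to 45 Mb, had the highest median of the 8 and 9 of the 33 members called higher. There 16 of 20 tested members were higher and 3 lower, with a median of 0.78. The called genes were ZNF283, ZNF404, ZNF45, ZNF222, ZNF223, ZNF224, ZNF225, ZNF234 and ZNF227, 9 of 20, beside 11.2% of all genes called higher. ZNF234 lost its call with DESeq2 size factors, with the DESeq2 test, with no filter and without some single libraries. ZNF223 lost its call with the DESeq2 test, with 10 counts required in every library and without some single libraries. Other genes also hold 42.6% of the transcript windows of ZNF223. ZNF428, the member called lower, is in the same cluster.

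Cluster D, from 36.7 to 38.3 Mb, had 21 of 25 higher and 0 lower with a median of 0.57. Cluster B, from 11.6 to 12.8 Mb, had 15 of 24 higher and 1 lower with a median of 0.55. Cluster A, from 8.6 to 9.9 Mb, had 9 of 11 higher and 1 lower with a median of 0.44. In these 3 clusters, higher members outnumbered lower ones.

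Cluster H at the end of the long arm, from 57.7 to 59 Mb, had 22 of 40 higher, 2 lower and a median of 0.31, or 33 higher, 0 lower and a median of 0.59 under library totals. Cluster C, from 19.8 to 24.3 Mb, holds ZNF91 and related genes and had 10 of 24 higher and 4 lower with a median of 0.16, or 12 and 0 with a median of 0.45 under library totals. Its 4 lower members (ZNF43, ZNF93, ZNF100 and ZNF486) were 4 of the 5 members with KRAB letters that were lower in this comparison, and under library totals none of the 5 passed the test as lower. Cluster G, from 56 to 57.2 Mb, had 3 of 13 higher and 6 lower with a median of -0.12, and with library totals 6 higher and 3 lower with a median of 0.16. Of its members 4 had KRAB letters. The 21 tested members outside the 8 clusters had 14 higher, 3 lower and a median of 0.38. Library totals raised the medians of the other clusters too. Those of A, B, D, E and F became 0.73, 0.84, 0.86, 1.07 and 0.96, and that of all genes became 0.32.

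**Figure D3:**
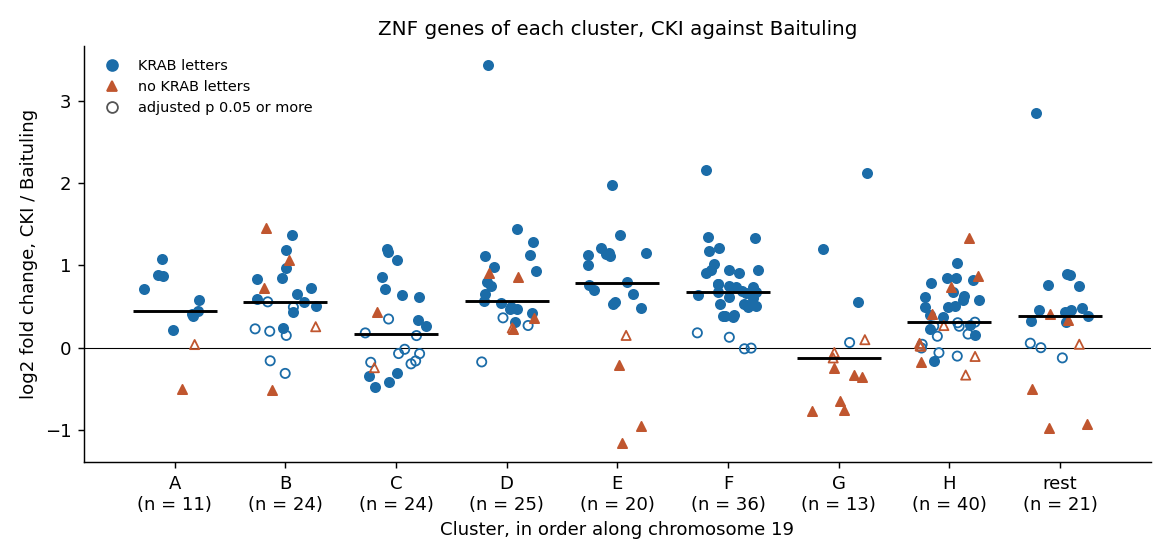
Log2 fold change of CKI against Baituling (y axis) for each tested member in the 8 large clusters, A to H in order along chromosome 19, and in the rest (x axis), with circles for members with KRAB letters, triangles for those without, open marks for an adjusted p of 0.05 or more and a line at the median. In cluster F 2 members lie just below 0, the lower at -0.01, and the lowest triangles of clusters E and G are at -1.16 and -0.77.

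The genes with the clearest stepwise levels were ZNF114 and ZNF841. ZNF114 (chr19:48773338-48790865, plus strand), a KRAB gene outside the 8 large clusters, had 20.8, 22.2 and 20.9 CPM under CKI, 8.41, 10.4 and 9.54 CPM under Kushen and 2.54, 3.18 and 3.15 CPM under Baituling. The 3 groups were separate, with CKI highest. The log2 fold change was 1.17 ± 0.088 (SE) for CKI against Kushen (adjusted p 7.09e-09, edgeR), 2.85 ± 0.11 for CKI against Baituling (adjusted p 1.71e-14) and 1.68 ± 0.13 for Kushen against Baituling (adjusted p 3.83e-10). ZNF114-AS1 overlaps ZNF114 on the opposite strand.

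ZNF841 (chr19:52567718-52599018, minus strand, cluster F) had 44.9, 41.1 and 39.5 CPM under CKI, 29.1, 24.7 and 25.1 CPM under Kushen and 9.56, 9.05 and 9.50 CPM under Baituling. Again no group overlapped another and the order was CKI, Kushen, Baituling. CKI exceeded Baituling by a log2 fold change of 2.16 ± 0.082 (SE, adjusted p 1.03e-14, edgeR) and Kushen by 0.67 ± 0.069 (adjusted p 4.45e-07), while Kushen exceeded Baituling by 1.49 ± 0.086 (adjusted p 8.15e-12).

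ZNF404 in cluster E had 6.67, 5.20 and 5.13 CPM under CKI, 4.83, 3.41 and 3.504 CPM under Kushen and 1.32, 1.32 and 1.71 CPM under Baituling. The Baituling libraries lay well below the rest, and the lowest CKI library lay just above the highest Kushen library. Its log2 fold change was 1.97 ± 0.20 (SE) for CKI against Baituling (adjusted p 2.28e-08, edgeR) and 1.44 ± 0.21 for Kushen against Baituling (adjusted p 4.49e-06).

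ZNF585A in cluster D had 15.7, 14.2 and 13.4 CPM under CKI, 11.2, 10.2 and 11.7 CPM under Kushen and 4.73, 6.14 and 5.08 CPM under Baituling. The groups were separate, and the step to Baituling was the larger of the 2. CKI exceeded Baituling by 1.45 ± 0.11 (SE, adjusted p 3.86e-10, edgeR). Kushen exceeded Baituling by 1.05 ± 0.11 (adjusted p 8.92e-08), and without the first Baituling replicate by 0.98, just under the limit for a call.

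ZNF490 in cluster B had 2.47, 3.83 and 2.84 CPM under CKI, 1.81, 1.48 and 1.69 CPM under Kushen and 1.17, 1.21 and 0.938 CPM under Baituling. The CKI libraries were the most spread and still above the others. Its log2 fold change of CKI against Baituling was 1.45 ± 0.23 (SE, adjusted p 9.80e-06, edgeR). Of its 96-base transcript windows 49.8% also occur in other genes and ZNF791 overlaps it on the opposite strand, so its counts are uncertain.

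ZNF493 and ZNF491 were called in both comparisons with Baituling, and CKI against Kushen gave -0.09 ± 0.16 (SE) and -0.41 ± 0.21. ZNF493 had 7.49, 6.41 and 5.09 CPM under CKI, 8.41, 5.70 and 6.03 CPM under Kushen and 2.73, 2.25 and 3.31 CPM under Baituling, so that CKI and Kushen overlapped and Baituling lay below both. Kushen exceeded Baituling by 1.28 ± 0.19 (SE, adjusted p 6.15e-06, edgeR). ZNF491 had 2.24, 2.26 and 2.80 CPM under CKI, 3.54, 2.01 and 4.17 CPM under Kushen and 1.27, 1.04 and 1.16 CPM under Baituling. Its Kushen libraries were widely spread but stayed above Baituling, with a log2 fold change of 1.47 ± 0.26 (SE, adjusted p 4.79e-05, edgeR), and ZNF491 was no longer called in CKI against Baituling without the third CKI replicate (0.95) or without the second Baituling replicate (0.99).

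**Figure D4:**
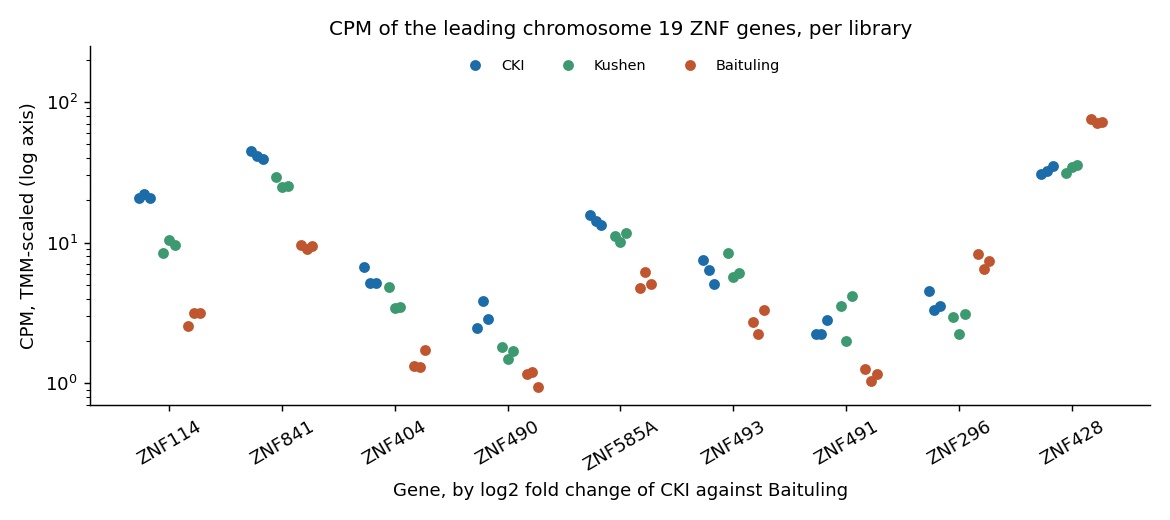
TMM-scaled CPM (y axis, log scale) in the 9 libraries for 9 called members, those with the largest changes at a mean log2 CPM of at least 1 (x axis, ordered by the log2 fold change of CKI against Baituling), each point a library coloured by treatment. ZNF114 and ZNF841 step down from CKI to Kushen to Baituling without overlap, and ZNF428 and ZNF296 are highest under Baituling.

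The largest fitted fold change belonged to ZNF540, a gene with few counts. ZNF540 in cluster D had 40, 31 and 34 counts under CKI, 29, 28 and 25 under Kushen and 0, 5 and 2 under Baituling, where a count of 0 allows up to 0.146 CPM in that library. The Baituling libraries lay below all others, and the 7 counts they hold together set the precision of the log2 fold change of 3.44 ± 0.47 (SE, adjusted p 1.71e-06, edgeR) under CKI. ZNF571 and ZFP30 overlap ZNF540 on the opposite strand. ZNF582 in cluster G had 54, 34 and 46 counts under CKI, 25, 14 and 17 under Kushen and 10, 7 and 6 under Baituling. It was separate in all 3 comparisons and called in 2, at 2.12 ± 0.32 on the log2 scale (SE, adjusted p 7.47e-06, edgeR) for CKI against Baituling and 1.18 ± 0.27 (adjusted p 0.00165) for CKI against Kushen, the latter falling to 0.99 without the second Kushen replicate.

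The called members with the largest change in clusters A and H were ZNF559 in cluster A, with a log2 fold change of 1.08 ± 0.076 (SE) for CKI against Baituling, and ZNF814 in cluster H, with 1.34 ± 0.18. ZNF559 had 28.5, 26.9 and 30.7 CPM under CKI, 24.8, 24.3 and 22.05 CPM under Kushen and 14.2, 13.4 and 13.03 CPM under Baituling, and its groups did not overlap. ZNF814 was at 4.78 to 6.16 CPM, 3.08 to 4.02 CPM and 1.71 to 2.58 CPM in the same order, also without overlap.

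Members higher under Baituling were mostly those without KRAB letters. ZNF428 (chr19:44111376-44123781, minus strand), whose protein has the single finger shown above, had 30.6, 32.2 and 35.3 CPM under CKI, 31.4, 34.5 and 35.6 CPM under Kushen and 76.0, 71.2 and 71.9 CPM under Baituling. CKI and Kushen overlapped and every Baituling library was far above them. The log2 fold change was -1.16 ± 0.061 (SE, adjusted p 1.48e-12, edgeR) for CKI against Baituling and -1.11 ± 0.061 (adjusted p 4.16e-12) for Kushen against Baituling, and both values were above -1 with library totals, at -0.87 and -0.90. SRRM5 overlaps ZNF428 on the opposite strand.

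ZNF296 had 4.51, 3.30 and 3.55 CPM under CKI, 2.94, 2.26 and 3.10 CPM under Kushen and 8.34, 6.53 and 7.40 CPM under Baituling. Kushen was lowest and Baituling highest without overlap. Its log2 fold change was -1.43 ± 0.16 (SE, adjusted p 1.15e-07, edgeR) for Kushen against Baituling and -0.97 ± 0.15 (adjusted p 7.38e-06) for CKI against Baituling. In that last comparison ZNF296 passed -1 without the first CKI replicate (-1.12) or the second Baituling replicate (-1.06).

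The 15 members without KRAB letters that were lower under CKI than under Baituling also included ZNF575, ZNF581, ZNF653, ZNF574, ZNF414 and ZNF628, named after their values were seen. For ZNF180, ZNF524 and ZNF544 among the 15, and for ZNF584 among the 5 with the letters, the sign turned positive under library totals. In Kushen against Baituling the same held for ZNF544, ZNF584 and ZNF787.

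Several of the most abundant members belonged to this set. By level per kilobase of exon, the 6 highest were ZNF787, ZNF428, ZNF146, ZNF358, ZNF579 and ZNF865, at 31.5, 29.96, 22.6, 20.6, 20.04 and 15.8 CPM per kb, beside a median of 1.34 CPM per kb over the members. ZNF358 had 30.7 to 31.4 CPM under CKI, 33.8 to 42.4 CPM under Kushen and 54.8 to 64 CPM under Baituling, with no overlap and a log2 fold change of -0.93 ± 0.073 (SE, adjusted p 6.83e-10, edgeR) for CKI against Baituling. ZNF579 had 53.7 to 56.2 CPM under CKI, 41.6 to 58.0 CPM under Kushen and 91.9 to 94.5 CPM under Baituling, and CKI differed from Baituling by -0.76 ± 0.077 on the log2 scale (adjusted p 2.84e-08).

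ZNF865 fell by 0.35 on the log2 scale under CKI against Baituling, and its first Kushen library (43.4 CPM) lay well below the other 2 (61.7 and 67.6 CPM). ZNF787 had a log2 fold change of -0.06 ± 0.062 (SE, adjusted p 0.391, edgeR) in that comparison, and its value of -0.19 for Kushen against Baituling turned to 0.02 under library totals. ZNF146, which consists of fingers with no repressor domain, went the other way, with 96.4 to 103 CPM under CKI and 82.6 to 88.6 CPM under Baituling and a log2 fold change of 0.22 ± 0.047 (adjusted p 0.000261).

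Members with a described function did not move as a block. ZNF91, known as a repressor of SVA elements, had 16.4, 13.4 and 13.5 CPM under CKI, 18.1, 15.6 and 15.6 CPM under Kushen and 8.83, 8.83 and 8.72 CPM under Baituling. Kushen and CKI overlapped, and both were above Baituling, with log2 fold changes of 0.90 ± 0.10 (SE, adjusted p 1.18e-07, edgeR) for Kushen and 0.72 ± 0.10 (adjusted p 2.46e-06) for CKI. ZNF93 of the same cluster, known as a repressor of LINE elements, had 3.83 to 4.19 CPM under CKI and 5.32 to 5.74 CPM under Baituling, with a log2 fold change of -0.48 ± 0.13 (adjusted p 0.00272).

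ZNF43 in the same cluster had a log2 fold change of -0.42 ± 0.12 (SE, adjusted p 0.00296, edgeR) for CKI against Baituling. ZNF85 and ZNF675 did not pass the test, at -0.20 ± 0.15 (adjusted p 0.243) and -0.24 ± 0.14 (adjusted p 0.133). ZNF675 is known as an inhibitor of TRAF6 signalling.

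ZNF568, known for repressing a placental transcript of IGF2 in mouse, had 10.8 to 11.8 CPM under CKI, 9.60 to 11.4 CPM under Kushen and 5.47 to 6.20 CPM under Baituling. Its log2 fold change of CKI against Baituling was 0.98 ± 0.10 (SE, adjusted p 5.77e-08, edgeR), just under the limit for a call, and above it with library totals (1.26) or upper quartile scaling (1.05). ZNF224, described as a repressor of aldolase A, had a log2 fold change of 1.13 ± 0.20 (adjusted p 3.53e-05) in the same comparison, from 1.32 to 1.59 CPM under Baituling to 2.65 to 3.45 CPM under CKI.

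ZNF331, an imprinted gene often silenced in tumours, differed between CKI and the rest. It had 22.8, 21.7 and 20.1 CPM under CKI, 15.9, 13.6 and 14.8 CPM under Kushen and 13.3, 13.9 and 15.3 CPM under Baituling. Kushen and Baituling overlapped and CKI lay above both, with log2 fold changes of 0.55 ± 0.079 (SE, adjusted p 2.26e-05, edgeR) against Kushen and 0.61 ± 0.082 (adjusted p 1.61e-06) against Baituling. Kushen against Baituling gave 0.06 ± 0.086 (adjusted p 0.551).

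ZNF175 and ZNF274 varied little. ZNF175, known from work on HIV transcription, had 49.5 to 55.4 CPM over the 9 libraries and a log2 fold change of -0.01 ± 0.051 (SE, adjusted p 0.931, edgeR) for CKI against Baituling. ZNF274, which brings SETDB1 to the 3′ ends of other zinc finger genes, had 48.9 to 58.4 CPM and a log2 fold change of 0.15 ± 0.056 (adjusted p 0.0198). ZNF382, described as a tumour suppressor, had 0.36 ± 0.25 (adjusted p 0.188), and its groups overlapped. ZNF444, a gene of the SCAN family, was lower under CKI than under Baituling by -0.65 ± 0.061 (adjusted p 1.01e-08), with 38.5 to 40.2 CPM against 60.4 to 63.9 CPM.

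Genes of the silencing machinery that KRAB zinc finger proteins work with were mostly lower under CKI or Kushen than under Baituling. Of 40 such genes written down, 39 were in the table and tested. In CKI against Baituling 4 were higher and 30 lower at an adjusted p under 0.05, with a median log2 fold change of -0.38. That is 10.3% and 76.9% of them, beside 39.1% and 37.0% of all genes. Under library totals 10 were higher and 19 lower with a median of -0.09, or 25.6% and 48.7%, beside 57.0% and 22.6% of all genes. For Kushen against Baituling 6 were higher and 28 lower with a median of -0.33, which is 15.4% and 71.8% beside 35.6% and 36.1% of all genes. Under library totals they were 10 and 19, beside 50.6% and 24.6% of all genes. In CKI against Kushen 5 were higher and 12 lower (12.8% and 30.8%, beside 19.6% and 20.2% of all genes), or 6 and 5 under library totals (beside 29.7% and 12.9%). Genes whose sign library totals turned in CKI against Baituling included CBX1, CHD4, DAXX, EHMT1, GATAD2A, PPHLN1, RBBP7 and TRIM24.

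TRIM28, which itself lies near the end of chromosome 19 (chr19:59055431-59062089), had 429, 444 and 496 CPM under CKI, 416, 505 and 526 CPM under Kushen and 891, 819 and 815 CPM under Baituling. CKI and Kushen overlapped, and Baituling was above both. The log2 fold change was -0.88 ± 0.069 (SE) for CKI against Baituling and -0.80 ± 0.069 for Kushen against Baituling. SETDB1, the histone methyltransferase that TRIM28 recruits, had 20.1 to 24.8 CPM over the 9 libraries and -0.12 ± 0.073 (adjusted p 0.139, edgeR) for CKI against Baituling.

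The 3 genes of this list with the smallest adjusted p in CKI against Baituling were SUMO2, SUMO3 and TRIM33. The SUMO genes encode the small modifiers that help TRIM28 bind its partners. SUMO2 had 204 to 208 CPM under CKI and 374 to 394 CPM under Baituling, a log2 fold change of -0.89 ± 0.039 (SE, adjusted p 1.10e-13, edgeR). SUMO3 had 154 to 162 CPM under CKI and 283 to 318 CPM under Baituling, a log2 fold change of -0.92 ± 0.046 (adjusted p 6.04e-13). TRIM33, a relative of TRIM28, was the reverse, with 96.9 to 102 CPM under CKI and 52.4 to 56.1 CPM under Baituling and a log2 fold change of 0.86 ± 0.047 (adjusted p 2.68e-12). The 1 gene of the list that was called was SUV39H1, a heterochromatin methyltransferase, at -1.18 ± 0.073 for CKI and -1.25 ± 0.074 for Kushen, each against Baituling, named after its values were seen. Under library totals it was not called for CKI.

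The members differ from other genes in base content, which was measured beside the result. Exon GC content had a median of 43.3% over the tested members, 48.0% over the 14164 tested genes placed on GRCh37 and 59.7% over the other coding genes of chromosome 19. In CKI against Baituling the medians of other genes were 0.15, 0.19, 0.10, 0.05 and -0.08 in 5 bins of GC content, set so that each held an equal share of members, from lowest to highest. The members' own medians in those bins were 0.43, 0.75, 0.62, 0.51 and 0.06. By median the members lay above other genes in each bin, least in the highest. In that bin, which ran from 47.3% to 70.9% GC, 30.2% of members were higher and 34.9% lower, beside 32.6% and 43.7% of other genes.

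In Kushen against Baituling the lowest GC bin had a median of 0.16 for members and 0.15 for other genes, and the next bin gave 0.48 beside 0.16. In CKI against Kushen the members' medians ran from 0.11 to 0.28 and those of other genes from -0.01 to 0.02. By summed exon length the other genes had a mean of the 5 medians of 0.01 in CKI against Baituling. The part of GC content or length in the members' difference was not tested. For members with KRAB letters, the median for CKI against Baituling was 0.65 for the 99 at or below the members' median GC and 0.49 for the 71 above. For those without the letters it was 0.13 for the 8 at or below that GC (3 higher, 1 lower) and -0.02 for the 36 above.

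**Figure D5:**
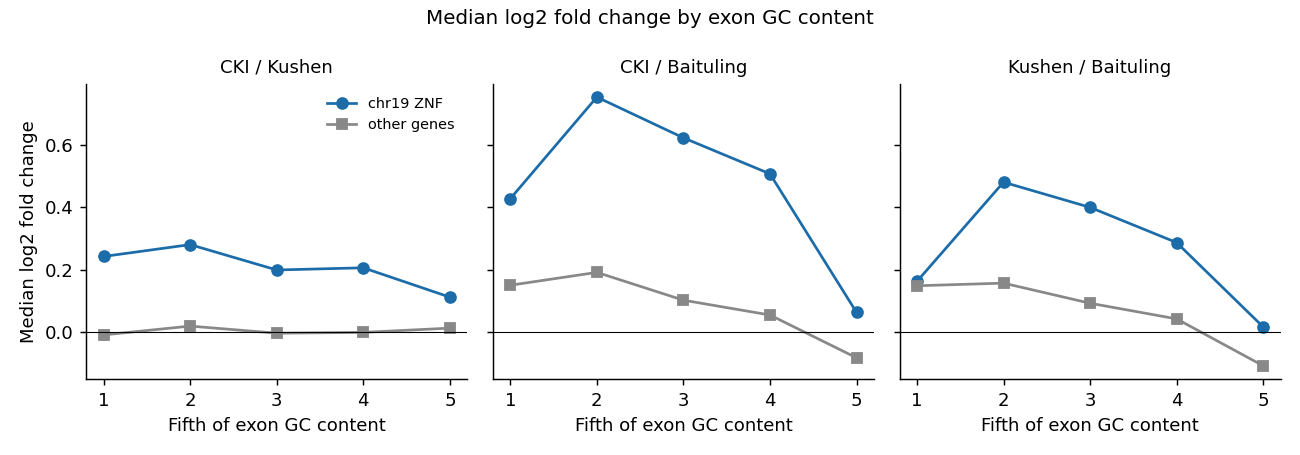
Median log2 fold change (y axis) of chromosome 19 ZNF genes (circles) and other genes (squares) in 5 bins of exon GC content (x axis, 1 lowest), cut at the quintiles of the members, for the 3 comparisons. In CKI against Baituling the members run from 0.75 in bin 2 to 0.06 in bin 5, and other genes from 0.19 to -0.08.

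Promoters of the members were read for short motifs. RefSeq promoter windows of 300 bases (GRCh38.p14, 250 bases before to 50 after the start) matched 193 members with 239 promoters, and 22 members had none. GCGTG, the core bound by the aryl hydrocarbon receptor with its partner, was counted on both strands, where matches may overlap each other and those of TGACNNNGC, the core of the antioxidant response element. GCGTG stood in 47.3% of the member promoters and in 36.5% of 35116 promoters of all genes, and TGACNNNGC in 14.2% and 13.3%. Member promoters also held more CpG, with a median of 20 against 14 per window. Promoters of members called higher under CKI than under Baituling held GCGTG in 50% of cases and those of other members in 46.8%. A match describes letters and is not a binding site.

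The promoters of ZNF841 (chr19:52095716-52096015, GRCh38.p14, minus strand) and ZNF428 (chr19:43619580-43619879, GRCh38.p14, minus strand) are shown as those of the leading cluster F gene and of the gene that went the other way, with GCGTG on either strand in capitals.
ZNF841 promoter: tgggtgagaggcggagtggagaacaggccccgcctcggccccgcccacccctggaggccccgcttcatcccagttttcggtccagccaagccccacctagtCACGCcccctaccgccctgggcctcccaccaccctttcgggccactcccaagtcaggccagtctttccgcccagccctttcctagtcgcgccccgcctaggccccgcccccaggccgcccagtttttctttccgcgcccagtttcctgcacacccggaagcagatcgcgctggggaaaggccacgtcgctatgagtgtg
ZNF428 promoter: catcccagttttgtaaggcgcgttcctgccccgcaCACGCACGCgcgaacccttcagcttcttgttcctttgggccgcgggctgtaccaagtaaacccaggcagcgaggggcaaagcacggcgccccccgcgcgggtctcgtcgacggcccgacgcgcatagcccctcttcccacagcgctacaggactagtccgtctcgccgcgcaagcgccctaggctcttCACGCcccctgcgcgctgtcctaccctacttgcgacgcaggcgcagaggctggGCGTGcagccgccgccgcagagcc
The window of ZNF841, 1 of 2 listed for that gene, held 1 match, as did the other, and that of ZNF428 held 4.

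Reads that fit more than a single gene, or come from the opposite strand, could enter these counts, since the libraries were unstranded and the counting of shared reads is not given in the sources used here. An annotated gene lies opposite to 120 members. Among the members named above, these include ZNF114, ZNF585A (ZNF420 opposite), ZNF582 (ZNF542P opposite) and ZNF814 (ZNF587 opposite). The 119 tested members with an opposite gene had 76 higher and 13 lower in CKI against Baituling (median 0.49), and the 95 others had 66 and 7 (median 0.49). Of the members, 107 shared no 96-base window with another gene's transcripts, 82 shared at least 1% and 13 more than 20%, up to 79.1% for ZNF709. The 132 tested members that shared under 1% had 89 higher and 13 lower (median 0.46), and the 82 others had 53 and 7 (median 0.60).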

How the data were processed

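RNA was sequenced from 9 libraries of MDA-MB-231 cells, 3 each under CKI, Kushen and Baituling, as unstranded paired-end reads. Per the labels and the study's methods, the authors trimmed reads with Trim Galore (version 0.3.7), aligned them to hg19 with STAR (version 2.5.3a) and deposited raw counts per gene. The counting program and its annotation are not given in the sources used here. Of 24566 deposited rows, 24344 genes remained once repeated rows were removed. The members, gene lists and tests were chosen with earlier results of these data known.

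Counts were fitted over all 9 libraries with edgeR (version 4.0.16, R version 4.3.3) by the quasi-likelihood test, two-sided, with TMM scaling, the filterByExpr filter (14195 genes kept, 10149 removed) and Benjamini-Hochberg adjustment over all genes tested. A gene was called at an adjusted p under 0.05 with a log2 fold change above 1 or below -1. Totals of 20144628 to 23782071 counts and a biological coefficient of variation of 4.534% set the precision. The steps were tested on simulated data.

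Named members were those called without overlap between groups and with the 5 largest rises or falls per comparison at a mean log2 CPM of at least 1, the 6 with the highest CPM per kb, 13 with a described role, and the called member with the largest change in each cluster. From the silencing genes TRIM28, SETDB1 and the 3 of smallest adjusted p were named. Fingers and KRAB letters came from translating the coding exons of GENCODE v44lift37 on GRCh37, since no protein table was used here. This and the bins of GC and length were chosen after the data were seen. Promoters came from RefSeq (GRCh38.p14).

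Alternatives were library totals, upper quartile scaling, DESeq2 (version 1.42.0) size factors or test, other filters, fits on only the 2 groups compared, a replicate block, a test against a log2 fold change of 1, other cluster gaps and leaving out each library. Deviations of same-numbered libraries correlated at -0.0746 to 0.123, so the replicate numbers were not taken to pair samples.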

Additional observations from a re-analysis of the deposited data

How the results depend on the processing

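Called members numbered 2 in CKI against Kushen, and, against Baituling, 34 for CKI and 10 for Kushen, the order used below. With library totals they numbered 71 for CKI (33.2% higher, beside 17.8% of all genes) and 30 for Kushen, each against Baituling, and the members that were lower at the adjusted p numbered 2, 10 and 14 in the 3 comparisons. The members' medians became 0.27, 0.78 and 0.49 with library totals, and 0.56 and 0.35 in the comparisons with Baituling under upper quartile scaling. The silencing genes past the test in CKI against Kushen went from 17 to 11 with library totals. ZNF787 had a log2 fold change of 0.024 for Kushen against Baituling with library totals, against -0.19. Requiring 10 counts in every library left 1 called member in CKI against Kushen, without ZNF582, and a fit on only the 2 groups left 3 lower members there. Tested against a log2 fold change of 1, edgeR called 0, 10 and 4 members, the 0 beside 70 higher and 6 lower members at the adjusted p against no change. The cause of these changes was not tested.

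Leaving out 1 library gave 2 to 4, 31 to 38 and 10 to 14 called members in the same order. In CKI against Kushen, 4 were called without the third CKI replicate (ZNF222 and ZNF726 added), and 3 to 6 members were lower. Higher members ranged from 52 to 70, 130 to 145 and 86 to 104, and medians from 0.18 to 0.22, 0.46 to 0.53 and 0.23 to 0.28. With a replicate block 2, 34 and 9 members were called, and 65, 140 and 100 were higher. DESeq2 called 2, 31 and 10. The share of all genes called is not given here for these fits or for the test against a log2 fold change of 1. Their counts of called members thus have no background beside them. Of the counts and medians recomputed, 227 stayed within their limits and 18 did not. The limit for a count was wide, since 70 and 100 higher members in CKI against Kushen fell within it. That for a median was 0.053, the SD of library medians within groups. Of the named genes' values 1497 kept direction and call, 20 gained a call, 6 lost it and 1 reversed. No member has a hyphenated symbol, so leaving such symbols out changed nothing. Those fits, and fits without a library of the group not compared, are among the 227. Low counts limit ZNF540 and ZNF582 above all. Gaps of 250 kb and 1000 kb in place of 500 kb gave 6 and 7 clusters of 10 or more members, against 8.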
